A study of Mus musculus with 6 samples.

Results

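C1q-high tumour macrophages are described here in 5 single-cell RNA libraries of mouse mammary tumours. Members were chosen by measured RNA counts: a cell was a member when its C1qa, C1qb and C1qc UMIs (unique molecular identifiers, 1 for each captured transcript) summed to at least 10 and it carried at least 1 Csf1r UMI. It also had at most 1 UMI over the T-cell genes Cd3e, Cd3d and Cd3g, and 0 UMIs of the B-cell gene Cd79a and of the NK-cell gene Ncr1. The rule was met by 2438 of 26843 cells with at least 200 genes and at most 15% mitochondrial counts: 454, 1366, 257, 260 and 101 in MRX, CTX, Combined, ctxd18t and combod18t.

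The series title names MERTK inhibition with cyclophosphamide in triple negative breast cancer, and since the treatment labels are not spelled out, libraries keep their labels here as names. Tumours were digested and live CD45+ Dapi- cells were sorted, so the sort sets which cells could be captured. The extract protocol speaks of day 7 mice treated 3 hours before harvest, also for ctxd18t and combod18t, whose labels hold d18, read here as day 18. Strain, tumour line, age, dose and the number of animals behind a library are not given in the sources used here. The protocol gives MRX, CTX and Combined barcode sets of 1 multiplexed run, and a VC library was not used here. Each label has 1 library, so no test of a difference between labels was possible and no p-value is given. Intervals are at 95% and hold only the error of counting; they leave out the spread between cells, animals and libraries.

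C1q is the recognition molecule of the classical complement pathway. Its A, B and C chains are made mainly by macrophages rather than by liver, and they bind immune complexes and dying cells. Macrophages of this kind often also carry ApoE, a lipid carrier, MS4A7, a tetraspan membrane protein, and receptors for the uptake of dying cells such as MERTK. CSF1R is the receptor through which macrophages receive their main survival signal. CXCL9, named in the series title, is an interferon-gamma-induced chemokine that binds CXCR3 on T cells and NK cells.

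Before the results, 2 features of the libraries bear on every comparison. Bases 8 and 9 of the cell barcode, which tell apart the samples of a multiplexed chip, were GT in both Combined and ctxd18t, CA in both CTX and combod18t, TC in MRX and AG in VC. The protocol assigns barcode sets for the earlier run only, and none for the day-18 pair, so the labels of ctxd18t and combod18t could not be checked against their sets. If they were exchanged, every day-18 ratio given here would change its sign. Combined and ctxd18t shared 21 barcodes and CTX and combod18t shared 34, with 0 among members, and the other pairs of libraries shared 0. Members had a median of 8580, 12033, 12014, 13914 and 12540 UMIs in MRX, CTX, Combined, ctxd18t and combod18t. Summed over members this gave 4400051, 19987528, 3697902, 4298557 and 1340851 UMIs in the same order, so combod18t was the least precise. The sampling day and the run cannot be told apart between the day-18 pair and the other libraries.

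The gate found cells whose C1q counts were far above its threshold. The median C1q sum was 63, 65, 59, 94 and 112 UMIs in MRX, CTX, Combined, ctxd18t and combod18t. Just inside the threshold, at 10 to 14 UMIs, lay 142 of the 2438 members, and just outside it, at 5 to 9 UMIs with every other condition met, lay 264 cells. B cells (Cd79a at least 2, no Cd3 and no Csf1r), which should lack C1q, had a C1q UMI in 5.41% to 16.4% of cells and a C1q sum of at least 10 in 0% to 0.662%. The part of free RNA and of doublets in these UMIs was not tested. The limit on Cd3 UMIs removed 774 cells that met the C1q threshold and had more than 1 Cd3 UMI. In combod18t it removed 106 cells against 101 members kept, in ctxd18t 150 against 260, and in CTX 375 against 1366.

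Without thinning, the other markers of the label were counted in most members of each library. Apoe was counted in 95.7% to 98.7% of members by library, and in 87.8% to 98% after every cell was thinned to 2000 UMIs to even out depth. Thinned B cells, whose unthinned median depth was 4086 to 8214 UMIs, had an Apoe UMI in 27.7% to 41.3%, so an Apoe UMI alone does not tell a member from background. Ms4a7 was counted in 51% to 88.1% of members, and Lyz2, the myeloid lysozyme that the rule does not use, in 95.8% to 100%. After thinning, Ms4a7 was found in 61.6%, 39.6%, 21.7%, 60.3% and 67% of MRX, CTX, Combined, ctxd18t and combod18t members. At that depth most CTX and Combined members lacked an Ms4a7 UMI, while Lyz2 was found in 86.4% to 98.4% by library. In thinned B cells these shares were 0.336% to 1.68% for Ms4a7 and 2.66% to 11.5% for Lyz2. Among 10 T-cell markers the summed level in members was 88.1 to 226 CPM (counts per 1000000 of the counts summed over the cells of a library), against 1608 to 3841 CPM in the other filtered cells. The rule itself caps Cd3e, Cd3d and Cd3g, which are on that list, and sets Cd79a and Ncr1 to 0, so these low levels are partly built in. Mast cell and basophil markers were at 0 for Cpa3, Mcpt4, Fcer1a, Mcpt8 and Ms4a2 in each library. Neutrophil markers summed to 124 to 192 CPM in MRX, CTX and Combined, but to 540 in ctxd18t and 1120 in combod18t. In combod18t a single member held 51.3% of the S100a8 counts and a single member 63.1% of the S100a9 counts. At least 10 UMIs of S100a8 and S100a9 were carried by 5.38% of ctxd18t and 3.96% of combod18t members, against 1.02% to 1.76% elsewhere. At least 2 UMIs of epithelial keratins or Epcam were carried by 4.95% of combod18t members and 1.17% to 3.08% of the others. Plasmacytoid dendritic cell transcripts (at least 3 UMIs of Siglech, Ccr9, Klk1 and Cox6a2) were found in 1.98% to 5.06%. Their part in the differences below was not tested beyond leaving such members out.

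C1q-high cells took the largest share of the cells in CTX. Members numbered 15.4% of what passed the filters in CTX (Clopper-Pearson, 14.6 to 16.1), while MRX held 8.35% (7.62 to 9.11). The shares were lower in ctxd18t (6.48%, 5.74 to 7.29), Combined (5.74%, 5.08 to 6.46) and combod18t (2.51%, 2.05 to 3.05). Combined was 9.61 percentage points below CTX, a difference of -9.61 (Newcombe interval -10.6 to -8.58). The day-18 pair differed in the same direction, by -3.97 points (-4.89 to -3.07). Against MRX, CTX was 7.01 points higher (5.95 to 8.05) and Combined differed by -2.6 points (-3.6 to -1.6). A share of sorted cells cannot tell fewer macrophages from more of the other cells.

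Among Csf1r-positive cells alone the order was another. MRX and CTX held like shares, 30.9% (28.6 to 33.4) and 30.1% (28.8 to 31.5). Then came ctxd18t at 24.5% (21.9 to 27.2), combod18t at 19.8% (16.4 to 23.5) and Combined at 18.5% (16.5 to 20.7). CTX and MRX, 7.01 points apart over all cells, differed by -0.813 points here, with an interval (-3.56 to 1.87) that includes 0. Combined lay 11.6 points below CTX, at -11.6 (-14 to -9.11). The day-18 difference was -4.7 points (-8.89 to -0.257), close to the limit of what counting could show. The T-cell limit removed 106 of 510 Csf1r-positive cells in combod18t and 150 of 1061 in ctxd18t. With these counted as members, combod18t would no longer lie below ctxd18t, so the sign of this difference rests on that limit. The denominator of Csf1r-positive cells was added after seeing the data.

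**Figure D1:**
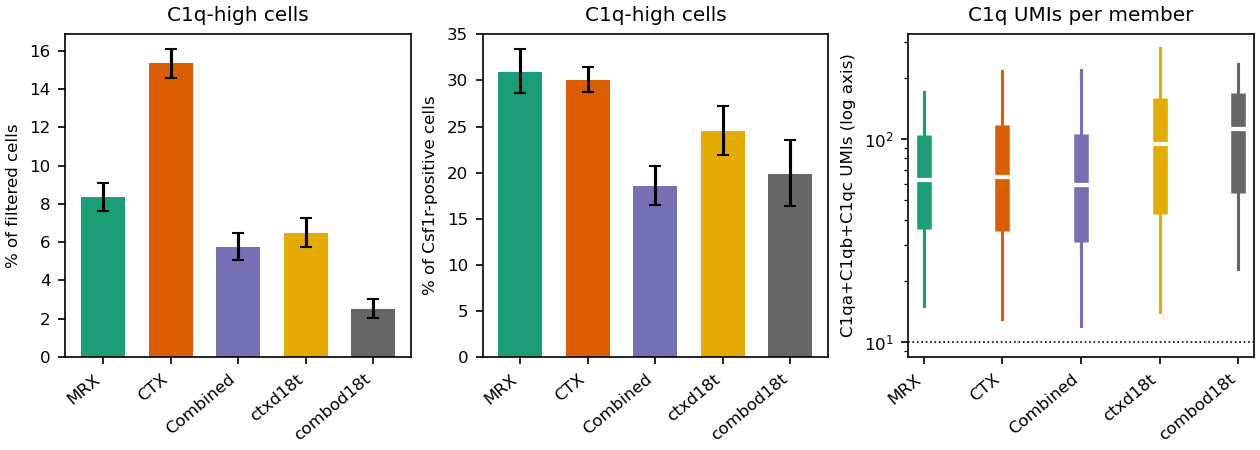
C1q-high cells as a percentage of filtered cells (left) and of Csf1r-positive cells (middle) in each library, bars with exact 95% counting intervals, and the C1q UMI sum per member on a log axis (right: white mark, median; thick bar, middle 50%; line, 5th to 95th percentile; dotted line, the threshold of 10). CTX stands highest at 15.4% of all cells, while MRX and CTX stand level at 30.9% and 30.1% of Csf1r-positive cells.

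The members were set beside C1q-low myeloid cells, which had at least 1 Csf1r and 5 Lyz2 UMIs, at most 2 C1q UMIs, 0 Siglech and the same T, B and NK limits. They numbered 596, 1846, 667, 302 and 103 in MRX, CTX, Combined, ctxd18t and combod18t. The rule chose the members on this contrast, so what follows is a description and not a finding. Of 4538 genes, 54 (1.19%) were at least 2-fold higher in members in 5 of 5 libraries and 12 (0.264%) at least 2-fold lower. The ranking by size leaves out the genes of the rule and the markers of other cell types. Klk1, a plasmacytoid dendritic cell marker, would have come before its first gene, with log2 ratios of 4.65, 4.53, 5.34, 3.93 and 2.84 in MRX, CTX, Combined, ctxd18t and combod18t. C1q-low cells were chosen without Siglech, another such marker, while the rule for members sets no limit on it. In the ranking, the genes with the largest smallest difference over the libraries included Blnk, an adaptor of B-cell and Fc signalling, and Ccl8, a monocyte-attracting chemokine. Others were Ms4a7, the adhesion molecules Cadm1 and Itga9, and Tmem119, a gene best known from microglia.

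Ms4a7 stood at 126, 48.5, 19.6, 92.1 and 21.8 CPM in C1q-low cells of MRX, CTX, Combined, ctxd18t and combod18t, and at 752, 384, 160, 706 and 660 CPM in members. Cadm1 was higher in members by 2.47 to 3.95 on the log2 scale of CPM + 1 over the 5 libraries. The 12 genes at least 2-fold lower in members of 5 of 5 libraries were Vcan, a matrix proteoglycan of classical monocytes, the haptoglobin gene Hp, Clec4e, Cxcl3, Mmp8, Plcb1, Itga1, Adgre4, Ifitm6 and Wfdc21, and the neutrophil markers S100a8 and S100a9. S100a8 was lower by -1.55 to -3.78 and S100a9 by -1.21 to -2.90. Next in size were Upp1 and S100a4, at -0.99 and -0.98 in CTX. Of 11 monocyte genes 2, and of 6 tested neutrophil markers 2, were among the 12. Vcan was lower in members by -1.43 to -4.66 and Hp by -1.34 to -2.95. Csf1r, at 222 to 386 CPM in members and 226 to 271 CPM in C1q-low cells, differed by -0.03 to 0.65. Cxcl9 was at like levels in both groups of cells in each library, with log2 ratios of -0.41 to 0.41.

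Gene levels in members were then compared between libraries for genes with at least 100 counts over the pair and at least 50 CPM in 1 of the libraries, and a gene was called when its log2 ratio reached 1 in either direction (2-fold). CPM here is on the scale of summed member counts, and log2 ratios are of CPM + 1, which understates differences of low genes. The title asks what MERTK inhibition adds to cyclophosphamide. Between Combined and CTX 12 of 3550 genes (0.338%) were called, 4 higher (0.113%) and 8 lower (0.225%) in Combined. Scaling by median-of-ratios size factors gave 2 higher and 11 lower, and thinning each member to 2000 UMIs gave 3 higher and 22 lower.

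Ms4a7 was the marker of the label that differed most. It was 384 CPM in CTX and 160 in Combined, a log2 ratio of -1.25 (-1.38 to -1.14), and lower in Combined than in every other library. An Ms4a7 UMI was found in 39.6% of thinned CTX and 21.7% of Combined members, against 61.6% in MRX, 60.3% in ctxd18t and 67% in combod18t, and 0.336% to 1.68% in B cells. In C1q-low cells the Ms4a7 ratio was -1.26. C1qa, C1qb, C1qc and Csf1r differed between Combined and CTX by -0.07, -0.06, 0.03 and 0.2, and Apoe by -0.14. The rule chose members on C1qa, C1qb, C1qc and Csf1r, so the likeness of these genes is partly built in.

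Unthinned, the Ms4a7 shares were 85.2%, 66.5%, 51%, 88.1% and 88.1% in MRX, CTX, Combined, ctxd18t and combod18t.

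Other genes lower in Combined were Ear2, an eosinophil-associated ribonuclease (64 CPM in CTX and 16.8 in Combined), and Tnip3, an inhibitor of NF-kB signalling (93.4 and 34.9). Also lower were the interferon-induced membrane gene Ifitm1 (91.3 and 34.1), the fibronectin gene Fn1 (110 and 49.8), Ccl12, a ligand of CCR2 (342 and 160), and Wfdc17 (372 and 180). Ccl12, Fn1, Ifitm1 and Wfdc17, and Vcam1 below, lay under 2-fold in 1 to 3 of 13 other settings. Ear2 was highest in CTX, with Combined next, and Tnip3 was highest in ctxd18t and lowest in Combined. The 4 genes called higher were Procr, Vcam1, Prkca and Klk1. Procr, the protein C receptor, was 25 CPM in CTX and 63.3 in Combined, a log2 ratio of 1.31 (1.11 to 1.57). Vcam1, an adhesion molecule of macrophages that retain blood cells, was 43 and 90.9 CPM (1.06), and Prkca, a protein kinase C gene, 39.7 and 82.2 CPM (1.03). Klk1, the plasmacytoid dendritic cell marker, was 35 and 71.4 CPM (1.01, interval 0.82 to 1.23), with a UMI in 60 of 1366 CTX and 15 of the Combined members. Prkca and Klk1 lie outside the rule for named genes and were chosen after their values were seen. Under 2-fold, but next in size, were Upp1 (0.94), Mcemp1 (0.84), Tuba1a (0.84), Chil3 (0.79), Arl5c (0.78) and Lyz2 (0.74). Lyz2 was 8526 CPM in Combined against 4015 to 5109 in the other libraries.

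Between the day-18 libraries 86 of 3989 genes (2.16%) were called, 32 higher (0.802%) and 54 lower (1.35%) in combod18t. Median-of-ratios scaling, which moved all ratios by -0.11, gave 22 higher and 60 lower, and leaving out the highest member of each gene gave 17 higher and 71 lower. Thinning each member to 2000 UMIs gave 81 higher and 131 lower. Several chemokines were among the lower genes. Ccl8 was 145, 904, 482, 1656 and 323 CPM in MRX, CTX, Combined, ctxd18t and combod18t, a day-18 log2 ratio of -2.35 (-2.5 to -2.22). Ccl7 was 104, 187, 136, 564 and 82.8 CPM in the same order (-2.75, -3.06 to -2.49), and Ccl2, the main monocyte attractant, was 177, 201, 214, 308 and 83.5 CPM (-1.87, -2.17 to -1.60). In each of these genes ctxd18t was the highest library, and combod18t was the lowest for Ccl7 and Ccl2.

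In the list of 9 CC chemokines, which does not hold Ccl8, 8 passed the level filter at day 18. The 8 had a ratio below 0, 4 were at least 2-fold lower, and their median was -1.04. Over all genes tested, 1936 of 3989 lay below 0, 1.35% were called lower and the median was 0.01. The 4 were Ccl2, Ccl3, Ccl7 and Ccl12. In Combined against CTX, 7 passed, 6 had a ratio below 0, 1 was called (Ccl12) and the median was -0.73 beside 0.06 over all genes. Much of the chemokine RNA came from few cells. A single member gave 22.0% of the Ccl8 counts in ctxd18t, 45% of the Ccl7 counts and 41.1% of the Ccl2 counts in combod18t. The thinned share of members with a Ccl2 UMI was 21.8% in ctxd18t and 5% in combod18t, a difference of -16.8 points (-22.9 to -9.08), and unthinned 44.6% and 23.8%. For Ccl8 it was 25.7% and 21% (43.1% and 38.6% unthinned), a difference of -4.68 points (-13.6 to 5.58), so for Ccl8 a difference in how many members carry it was not detectable.

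Pparg, a lipid-sensing nuclear receptor, was 53 CPM in ctxd18t and 8.2 in combod18t (-2.55, -3.72 to -1.83). It was found in 9.34% of thinned ctxd18t and in 0 of 100 thinned combod18t members, which allows a share of up to 3.62%, and unthinned in 33.1% and 6.93%. In B cells the thinned share was 0% to 0.672% for Ccl2, 0.45% to 5.29% for Ccl8 and 0% for Pparg. Mrc1, the mannose receptor, was 747 and 301 CPM (-1.31), with a UMI in 39.7% and 27% of thinned members, 61.9% and 39.6% unthinned, and 0.14% to 1.13% of B cells. Ctss, Cd14 and Aif1 differed by 0.17, 0.04 and 0.01, and the class II genes H2-Aa, H2-Ab1 and Cd74 by -0.02, -0.03 and 0.06.

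The monocyte genes Vcan (70.7 CPM in ctxd18t and 27.6 in combod18t), F13a1 (240 and 86.5) and S100a4 (193 and 83.5) were at least 2-fold lower at day 18 in combod18t. Of 11 matched monocyte genes 8 passed the filter, 3 were called lower and 7 had a ratio below 0, beside 1.35% called lower and 1936 of 3989 below 0 over all genes tested. Slpi, a protease inhibitor, was 114 and 21.6 CPM, and Ccl24 84 and 19.4. The heat-shock genes Hspa1a (71.7 and 20.9) and Hspa1b (103 and 23.1) and the immediate-early gene Jun (220 and 95.5), which respond to stress including tissue digestion, were lower in combod18t too. Of 9 such genes passing the day-18 filter, 3 were called lower and 8 had a ratio below 0, beside 1.35% called lower over all genes. Between Combined and CTX 0 of 6 such genes passing the filter were called. With 0.338% of all genes called there, this 0 is no result about them. The part of tissue handling in the day-18 differences was not tested.

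Among the higher genes of combod18t, Krt17, a keratin, was the first by size, yet its 108 counts came from 1 member. Wfdc18 came next (6.75 CPM in ctxd18t and 67.1 in combod18t), and then Epcam, an epithelial marker (15.6 and 81.3, log2 ratio 2.31), with 91.7% of its combod18t counts in 1 member. The neutrophil markers S100a8 (158 and 481 CPM, 1.60) and S100a9 (236 and 507 CPM, 1.10) were also called higher, with the single-member shares given above. Wfdc18 and these 3 markers lie outside the rule for named genes. Among the genes within it, Col14a1 (17.7 CPM in ctxd18t and 60.4 in combod18t), Apbb2 (37.9 and 118), the B-cell survival factor Tnfsf13b (36.1 and 102), Zfp704 (20.2 and 53.7) and the chemokine Cxcl14 (33.7 and 88) rested on more members. Apbb2 was counted in 41 of 101 combod18t members, and a single member held 10.1% of its counts. For Srgap3, 67.1% of the combod18t counts came from 1 member. Without the highest member Srgap3 was at 0.03. Col14a1, Apbb2 and Cxcl14 were also higher in members than in C1q-low cells of each library, by 0.53 or more on the log2 scale.

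Of the 3343 genes that passed the filter in both pairs, 7 were called lower in the first pair and 43 in the day-18 pair. The pairs share no library, and 3 genes were called lower in both, which is 42.9% of the first list and 6.98% of the second. With the day-18 labels exchanged the shared count would be 0, since 0 of the 7 were called higher at day 18. Ccl12 and Wfdc17 were among the 3 genes. At day 18 Ccl12 was past 2-fold in 11 of 13 other settings. Its thinned member share differed by -2.73 points (-10.2 to 6.37) at day 18 and by -14.1 points (-18.2 to -9.17) in Combined against CTX. A single member held 33.7% of the Ccl12 counts in Combined and 22% in combod18t. Wfdc17, a small secreted protein of macrophages, was 409, 372, 180, 620 and 292 CPM in MRX, CTX, Combined, ctxd18t and combod18t. In the higher direction 2 genes were called in each pair and 0 in both. Ms4a7, lower in Combined, was 706 and 660 CPM in the day-18 libraries (-0.1, -0.21 to 0.01).

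**Figure D2:**
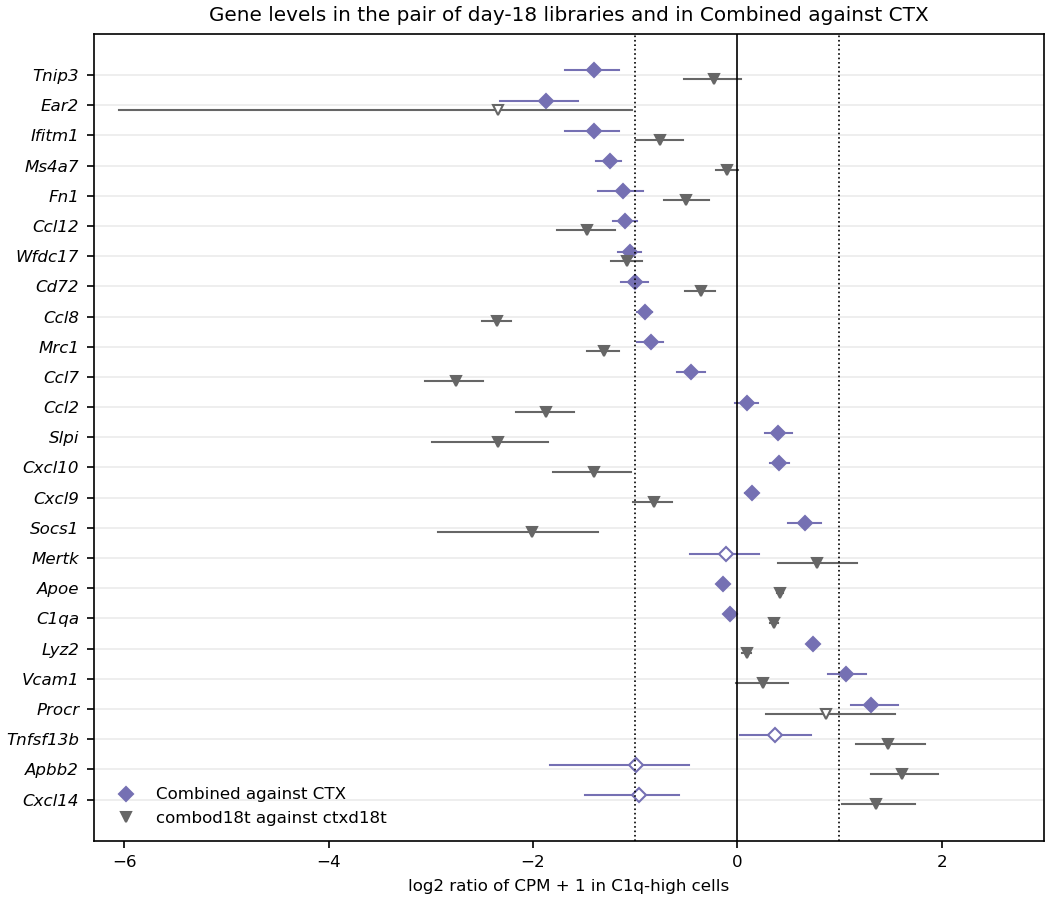
Log2 ratios of CPM + 1 in summed C1q-high cells for Combined against CTX (diamonds) and combod18t against ctxd18t (triangles), with 95% counting intervals of the ratio without the pseudocount; open symbols did not pass the level filter in that pair and dotted lines mark 2-fold. Ccl12 lies left of the 2-fold line in both pairs (-1.1 and -1.47), Ms4a7 in the first only (-1.25 and -0.1), and Ccl7 and Socs1 in the day-18 pair (-2.75 and -2.01).

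Interferon-induced genes were higher in CTX and Combined than in MRX. Interferon-gamma, secreted by T and NK cells, acts through transcription factors that include IRF1 and raises guanylate-binding proteins (Gbp genes), immunity-related GTPases, Socs1, Cd274 (PD-L1) and the CXCR3 ligands. A pair of short motifs stands for the best known sites of interferon-responsive promoters. The gamma-activated site GAS was searched as TTCNNNGAA, which reads the same on both strands. The interferon-stimulated response element ISRE was searched as GAAANNGAAA and, on the other strand, TTTCNNTTTC. The 250 bases before the annotated start were read for Irf1, Gbp2, Cxcl10 and Cxcl9, which carry the comparison below, from RefSeq (GRCm38.p6; the counts were made on GRCm39). They are printed in the gene's orientation, with motif matches in capitals.
Irf1: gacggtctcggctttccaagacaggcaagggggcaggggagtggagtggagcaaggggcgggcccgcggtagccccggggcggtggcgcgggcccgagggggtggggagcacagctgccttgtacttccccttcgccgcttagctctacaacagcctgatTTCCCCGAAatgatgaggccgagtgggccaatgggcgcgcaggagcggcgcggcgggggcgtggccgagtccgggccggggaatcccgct
Gbp2: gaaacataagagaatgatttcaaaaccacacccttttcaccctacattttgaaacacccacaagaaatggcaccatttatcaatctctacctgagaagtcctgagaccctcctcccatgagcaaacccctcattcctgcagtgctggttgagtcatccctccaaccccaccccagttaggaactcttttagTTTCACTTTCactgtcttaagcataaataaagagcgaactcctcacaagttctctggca
Cxcl10: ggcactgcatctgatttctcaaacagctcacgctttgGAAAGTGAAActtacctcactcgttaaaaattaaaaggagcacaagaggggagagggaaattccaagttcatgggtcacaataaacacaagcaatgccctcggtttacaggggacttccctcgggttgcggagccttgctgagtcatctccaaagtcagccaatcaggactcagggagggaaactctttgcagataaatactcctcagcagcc
Cxcl9: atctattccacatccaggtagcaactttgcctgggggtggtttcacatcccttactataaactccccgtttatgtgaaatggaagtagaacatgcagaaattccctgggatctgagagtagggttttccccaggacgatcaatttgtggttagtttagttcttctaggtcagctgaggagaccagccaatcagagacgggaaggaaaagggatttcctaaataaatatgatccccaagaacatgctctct
Irf1 (chr11:53769764-53770013, plus strand) held 1 GAS match, beginning 90 bases before the start, Gbp2 (chr3:142620413-142620662, plus strand) 1 ISRE match at 59 bases and Cxcl10 (chr5:92348890-92349139, minus strand) 1 ISRE match at 213 bases. Cxcl9 (chr5:92328080-92328329, minus strand) held neither motif in this window, which says only that these letters are not there. Another Irf1 promoter in the table held neither motif. Over all 32851 promoters of this length in the table, 7.02% held GAS and 2.98% ISRE, and of 27025 genes 8.13% held GAS and 3.46% ISRE in at least 1 promoter. Of the 13 interferon-gamma-induced genes listed, 9 matched the table, and 4 of these held GAS and 7 ISRE in at least 1 of their promoters. A match is not a measured site, and a motif may overlap another.

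Cxcl9 stood at 304, 937, 1029, 361 and 204 CPM in MRX, CTX, Combined, ctxd18t and combod18t members. CTX and Combined were high and close to each other, and the remaining libraries low. The log2 ratio was 1.62 in CTX and 1.76 in Combined against MRX, and 0.14 between Combined and CTX. After thinning, 12.4% of MRX, 47.5% of CTX, 53.1% of Combined, 23.3% of ctxd18t and 16% of combod18t members had a Cxcl9 UMI (18.7%, 69.2%, 73.5%, 41.5% and 28.7% unthinned). In B cells the share was 0% to 1.7%. Combined and CTX differed by 5.68 points, with an interval (-1.01 to 12.3) that includes 0, and the day-18 pair by -7.35 points (-15.4 to 2.32). The day-18 log2 ratio of the Cxcl9 level was -0.82 (-1.02 to -0.64).

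Cxcl10 was 29.1, 221, 296, 131 and 49.2 CPM in MRX, CTX, Combined, ctxd18t and combod18t. Cxcl11 was 70.9, 371, 264, 86.8 and 31.3 CPM. Both followed Cxcl9 in being highest in CTX and Combined. At day 18 both were called lower in combod18t, at -1.40 (-1.80 to -1.04) and -1.44 (-1.97 to -1.01), so 2 of 3 CXCR3 ligands were called, beside 1.35% of all genes. A single combod18t member held 27.3% of the Cxcl10 and 57.1% of the Cxcl11 counts. The thinned shares of members with a UMI differed by -2.17 points (-7.3 to 4.87) and -4.39 points (-8.73 to 1.65), intervals that include 0. Cxcl10 stayed past 2-fold in 11 and Cxcl11 in 13 of 13 other settings. Of 10 interferon-gamma-induced genes that passed the day-18 filter, 9 had a ratio below 0 and 2 were called lower (Iigp1 and Socs1), with a median of -0.56 beside 0.01 over all genes. Irf1, itself a transcription factor of the pathway, was 54.3, 182, 201, 177 and 125 CPM, with the day-18 libraries nearer to CTX than to MRX. Gbp2 was 27, 141, 171, 104 and 67.1 CPM, Socs1, the feedback inhibitor of the pathway, 15.5, 72.9, 115, 50.9 and 11.9 CPM, and Cd274 83.9, 384, 388, 241 and 143 CPM. MRX was the lowest library for each named here except Cxcl9, Cxcl11 and Socs1, for which combod18t was lowest.

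In CTX against MRX 141 of 3532 genes (3.99%) were called, 99 higher (2.8%) and 42 lower (1.19%). In Combined against MRX 234 of 3673 (6.37%) were called, 134 higher (3.65%) and 100 lower (2.72%). These contrasts share MRX, so their likeness is no separate support. Of the 13 interferon-gamma-induced genes, 12 passed the filter and 12 were called higher in CTX, with a median log2 ratio of 1.97, and 12 in Combined, with a median of 2.22; over all genes the medians were 0.03 and 0.09. Ido1 had 0 counts in each library. Of the 12, 9 lay under 50 CPM in MRX (Gbp5 at 12) and passed the filter only through the library where they are high, so they had to differ and the count and median support nothing by themselves. The list of type I interferon-stimulated genes lay in the same direction. In CTX 8 passed, 8 had a ratio above 0 and 4 were called (Isg15, Ifit2, Rsad2 and Oasl1), with a median of 1.22. In Combined 7 passed, 7 were above 0 and the same 4 genes were called, with a median of 1.38. Of these, 4 of 8 and 3 of 7 lay under 50 CPM in MRX and passed the filter only through the higher library. The called genes Ifit2, Rsad2 and Oasl1 were among them, so these counts and medians support nothing by themselves either. The class I presentation genes Tap1, Tap2, Psmb8, Psmb9 and Nlrc5 were called in both, 5 of 9, of which Tap2 and Nlrc5 (44.3 and 24.3 CPM in MRX) passed the filter only through the library where they are high. H2-K1 was 2052 CPM in MRX, 2923 in CTX and 3426 in Combined. Class II genes, with 0 of 8 called in CTX and 0 of 7 in Combined, did not pass 2-fold, and H2-Aa was 10776, 11217 and 11727 CPM. C1q-low cells carried the difference as well, with log2 ratios of 1.93 for Cxcl9 and 2.02 for Gbp2 in CTX against MRX.

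**Figure D3:**
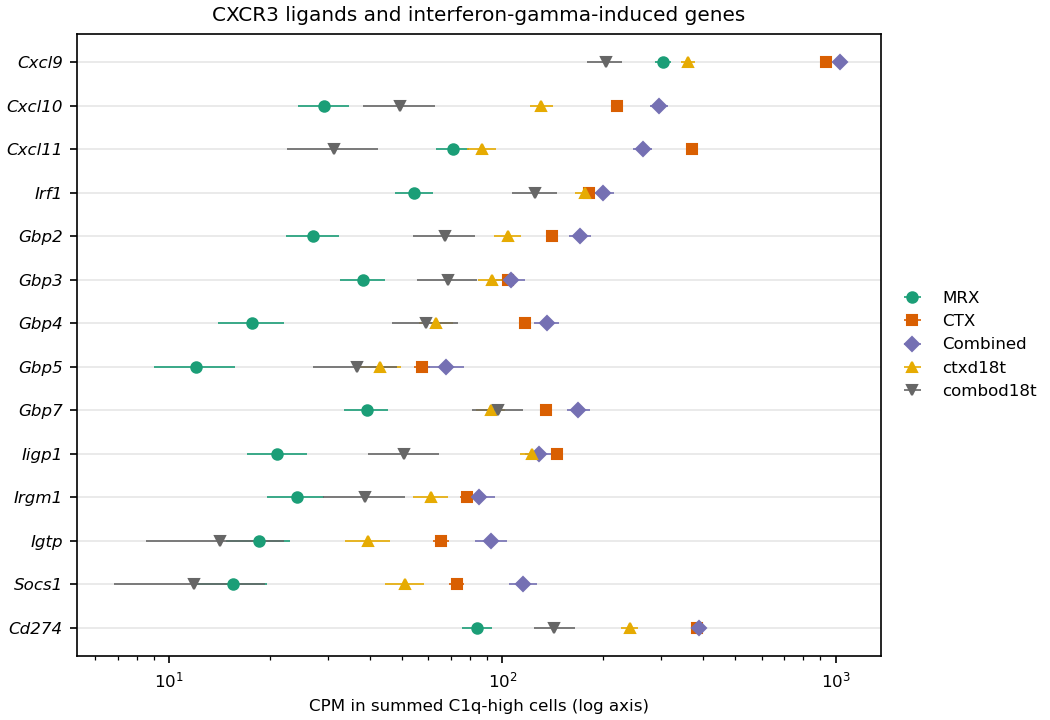
Levels of the 3 CXCR3 ligands and 11 interferon-gamma-induced genes in summed C1q-high cells of each library, in CPM on a log axis, with exact Poisson 95% intervals. CTX and Combined are the highest libraries for each gene (Cxcl9 937 and 1029 CPM), and MRX (Cxcl9 304 CPM) is the lowest except for Cxcl9, Cxcl11, Igtp and Socs1, where combod18t lies left of it.

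Among the genes outside the interferon lists, high ratios against MRX were found in Pdcd1lg2 (PD-L2), at 3.18 CPM in MRX, 84.2 in CTX and 57.9 in Combined, and in Inhba, the activin A subunit, at 6.59, 62.9 and 77.3 CPM. Thinned, a Pdcd1lg2 UMI was found in 1.77%, 11.4% and 8.27% of MRX, CTX and Combined members. In B cells it was found in 5.7%, 9.64% and 7.73%, so members lay near or below the B-cell share. Ly6a, an interferon-induced surface protein, was 105, 948 and 958 CPM. Serpina3g was 18.9, 135 and 223 CPM and the Ly6-family gene Ly6i 37, 230 and 358 CPM. Pdcd1lg2, Inhba, Serpina3g and Ly6i lay under 50 CPM in MRX and passed the filter only through the higher library. Ly6c2, the classical monocyte marker, was 179, 552 and 657 CPM, and 144 and 97 in ctxd18t and combod18t. The monocyte list did not move as 1 group. Of its 11 matched genes, 8 passed the filter in CTX against MRX, where 3 were called higher (Ly6c2, Plac8 and Ly6i; 2.8% of all genes) and 2 lower (1.19%). In Combined against MRX 11 passed, 7 were called higher (3.65%) and 2 lower (2.72%). The lower genes were F13a1 (184, 81.6 and 57.1 CPM) and Fn1 (223, 110 and 49.8 CPM) in both. Of the genes called higher, 1 of 3 in CTX and 4 of 7 in Combined, with Ly6i in both, lay under 50 CPM in MRX and passed the filter only through the higher library. Ear2, at 3.41, 64 and 16.8 CPM, was higher in CTX than in Combined, and passed the filter against MRX only through CTX.

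Of 14 macrophage identity genes, 2 were at least 2-fold lower in CTX than in MRX (Cx3cr1 and Apoe) and 4 in Combined (these with Maf and Ms4a7), beside 1.19% and 2.72% of all genes called lower. Apoe was 10831, 3455, 3130, 5823 and 7787 CPM in MRX, CTX, Combined, ctxd18t and combod18t, log2 ratios of -1.65 and -1.79 in CTX and Combined against MRX. Cx3cr1, the fractalkine receptor, was 309, 98.3, 70.3, 215 and 248 CPM (-1.64 and -2.12). The thinned share of members with a Cx3cr1 UMI was 38.4%, 17.5%, 13.4%, 27.6% and 38% (77.1%, 51.1%, 41.2%, 72.3% and 76.2% unthinned), against 0% to 0.756% of B cells. MRX and combod18t stood highest for both genes, and Combined lowest. Pf4, a platelet-type chemokine also made by macrophages, was 139, 39.6, 21.1, 82.6 and 61.2 CPM. Tanc2 was 147, 43.9, 39.2, 193 and 279 CPM, and the integrin Itga6 53, 12.1, 6.76, 46.5 and 76.1 CPM. Trem2, a lipid-sensing receptor, was 253, 120, 71.4, 157 and 166 CPM, and Selenop 626, 330, 296, 760 and 679 CPM. For Cxcl13, at 69.3 CPM in MRX, 94.8% of the counts came from 1 member, and without the highest member of each library its ratios turned to 0.88 and 0.74.

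**Figure D4:**
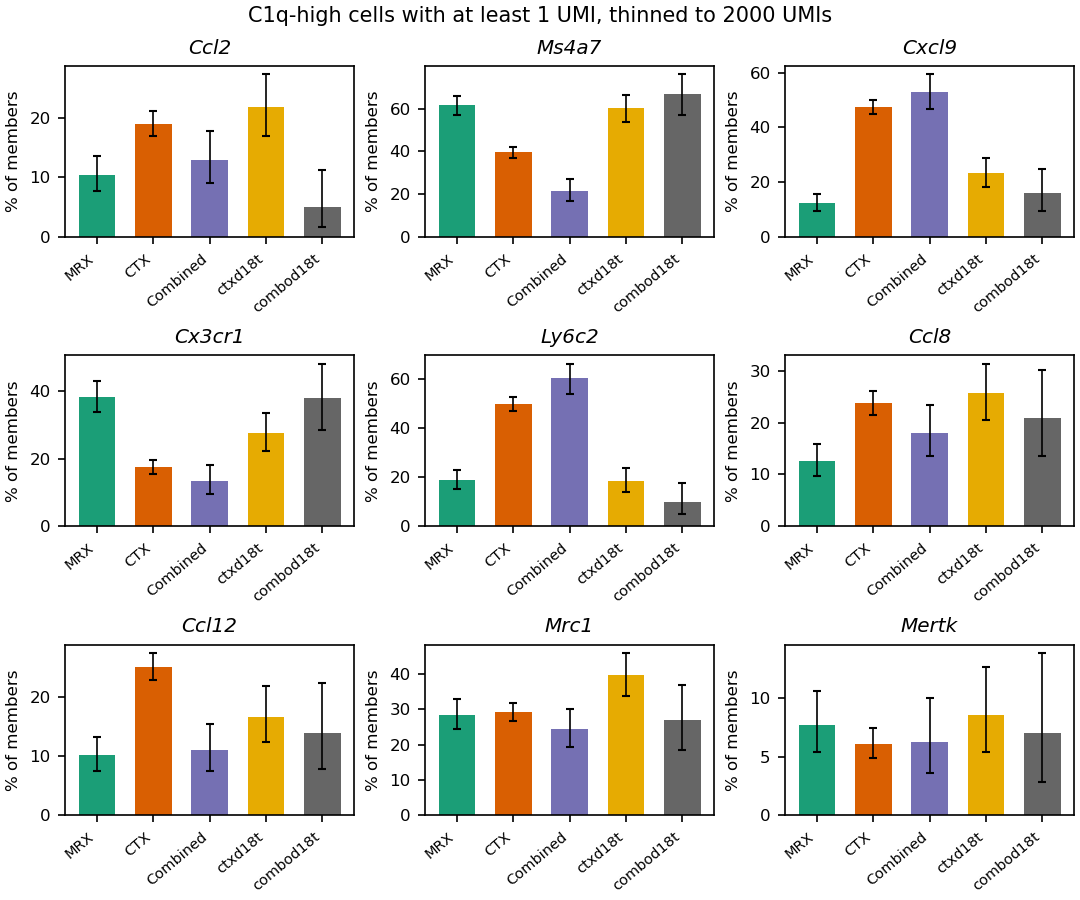
Percentage of members with at least 1 UMI of a gene after thinning each member to 2000 UMIs, by library, with exact 95% intervals; the scale of the vertical axis differs between genes. Ccl2 was lowest in combod18t (5%), Ms4a7 was lowest in Combined (21.7%), Cxcl9 was high in CTX and Combined (47.5% and 53.1%), and Mertk intervals overlapped in the 5 libraries.

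The TAM receptors, which bind phosphatidylserine on dying cells through Gas6 and protein S, were low in counts. Mertk, the target named in the title, was 50.7, 26.1, 24.1, 37.9 and 65.6 CPM in MRX, CTX, Combined, ctxd18t and combod18t. It was 20.4, 12.9, 14.1, 13.1 and 9.13 CPM in C1q-low cells, so members were the higher group in each library. The Mertk ratio was -0.11 in Combined against CTX, where it was below the level filter, 0.78 at day 18 and -1.04 in Combined against MRX (-1.45 to -0.71). With each member thinned to 2000 UMIs the day-18 ratio was -0.22 and the last -0.23, so the day-18 sign and the 2-fold call against MRX did not hold. A Mertk UMI was found in 7.73%, 6.09%, 6.3%, 8.56% and 7% of thinned members (32.4%, 23.1%, 22.2%, 28.5% and 33.7% unthinned) and in 0% to 0.189% of B cells. Axl was 118, 97.3, 104, 87.2 and 128 CPM and did not pass 2-fold in any comparison. Gas6 was 17.5, 11.5, 3.25, 43.3 and 20.9 CPM and Pros1 28.2, 17.5, 16.5, 45.8 and 43.3 CPM, both under the filter, and Tyro3 had at most 1 count in a library. RNA levels do not measure the kinase activity that an inhibitor acts on.

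Members were not uniform within a library. They were ranked by their C1q sum after thinning to 2000 UMIs and split in 3 groups of equal size, whose median C1q sums were 3 to 8 in the lowest and 25 to 30 in the highest. Of the 372 genes examined, 167 had at least 10 counts over these groups in each library. In the highest group, 3 genes were at least 2-fold higher in 5 of 5 libraries: Cd63, a lysosomal and exosomal tetraspanin, Timp2, an inhibitor of matrix proteases, and Vcam1. Cd63 was 354 and 1050 CPM in the lowest and highest group of MRX, 170 and 631 in CTX, 159 and 661 in Combined, 308 and 1235 in ctxd18t, and 368 and 1621 in combod18t. Timp2 was higher by 1.35 to 2.18 on the log2 scale. The split used C1q, which chose the members, so it describes them and tests nothing.

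At least 2-fold lower in the highest group in 5 of 5 libraries were Cxcl2, a neutrophil chemokine, S100a4, a calcium-binding protein of monocytes, and the thrombospondin gene Thbs1. Thbs1 was 464 and 56.3 CPM in the lowest and highest group of MRX and 555 and 134 in CTX. Ms4a7 was at least 2-fold higher in the highest group in 4 libraries (1.33, 2.51, 2.56 and 1.61 in MRX, CTX, Combined and ctxd18t) and differed by 0.85 in combod18t. Ccl8 was also at least 2-fold higher in MRX, CTX, Combined and ctxd18t (2.7, 2.05, 3.46 and 2) and differed by 0.71 in combod18t. The monocyte genes Plac8 and Fn1 were lower in the highest group, Plac8 by -0.94 to -2.65. Il1b differed by -0.7 to 0.11 and H2-Aa by 0.1 to 0.38, both under 2-fold in each library.

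**Figure D5:**
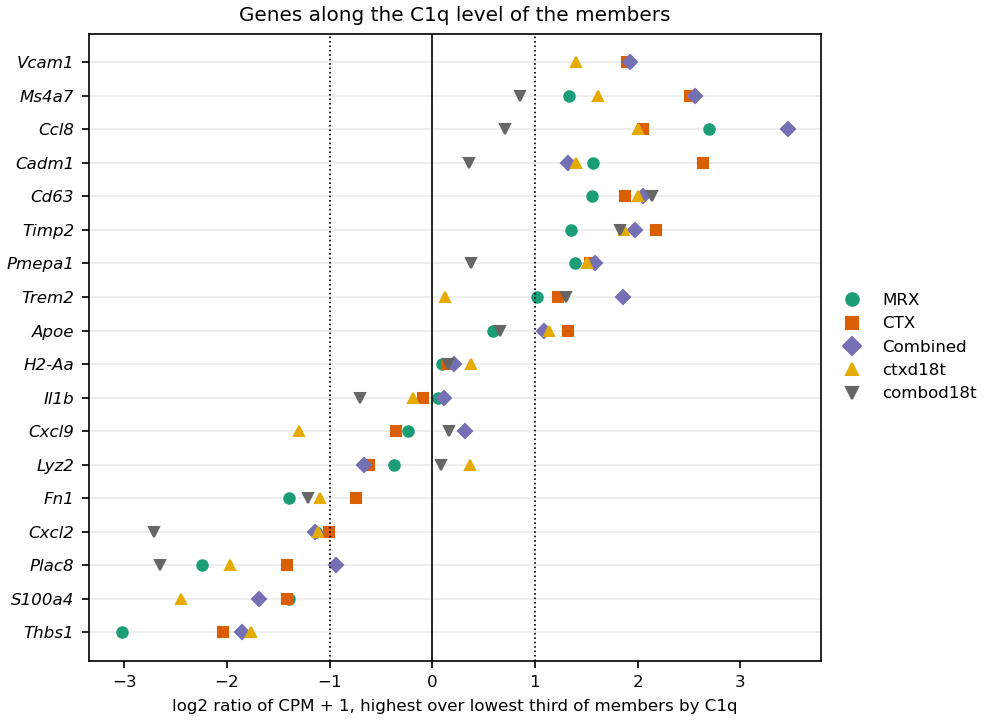
Log2 ratio of CPM + 1 between the highest and the lowest group of members by C1q per 2000 UMIs, for each library; points with fewer than 4 counts in either group are left out and dotted lines mark 2-fold. Cd63 and Timp2 lie right of the 2-fold line in the 5 libraries, H2-Aa and Il1b lie near 0, and Cxcl2 lies to the left.

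Cxcl9 did not follow C1q in the same direction everywhere (log2 ratios of -0.24, -0.35, 0.32, -1.3 and 0.16 in MRX, CTX, Combined, ctxd18t and combod18t). Within single members it was set against Cd274. After thinning, 25.5% of Cd274-positive and 10.6% of Cd274-negative members had a Cxcl9 UMI in MRX, 56.6% and 40.4% in CTX, 58.1% and 48.9% in Combined, 37.1% and 16.1% in ctxd18t, and 45% and 8.75% in combod18t. The share was higher in the positive cells of each library, though in Combined the intervals overlapped. Thinned B cells had a Cd274 UMI in 12.1%, 22.1%, 19.2%, 13.7% and 8.11% (MRX, CTX, Combined, ctxd18t and combod18t), against 12.1%, 43.7%, 46.1%, 34.6% and 20% of members, so in MRX the Cd274-positive share does not exceed that of B cells. The share with Cxcl9 was lower in members with an Ms4a7 UMI than in those without: 9.68% and 16.7% in MRX, 37.4% and 54.1% in CTX, 40% and 56.8% in Combined, 21.3% and 26.5% in ctxd18t, and 11.9% and 24.2% in combod18t. In MRX, Combined, ctxd18t and combod18t these intervals overlapped. Between Ms4a7 and Ly6c2 the shares were ordered likewise, with Ms4a7 in 32.1% of Ly6c2-positive and 47.1% of Ly6c2-negative CTX members. Cells of 1 library are not replicates, and these shares are a description.

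In several lists 0 genes were called in Combined against CTX or at day 18. With 0.338% and 2.16% of all genes called, a 0 in lists this short is near the background and is no result about them. They include the lysosomal proteases and membrane proteins (0 of 13 in both pairs), with Ctsb at 1796, 1587, 1424, 2154 and 2007 CPM and Psap, the saposin precursor, at 1950, 2154, 2585, 1744 and 2478 CPM. The class II genes had 0 of 8 and class I 0 of 9 in both pairs. Of the inflammatory cytokines and regulators 0 of 6 passing the filter were called, with Il1b at 2259, 3176, 3167, 3062 and 2101 CPM. Of the p53 response genes, examined because cyclophosphamide alkylates DNA, 0 of 5 were called in both pairs. Cdkn1a was 878, 1238, 1424, 993 and 716 CPM. Among proliferation genes only Pcna passed the filter (88.6, 98.2, 99.5, 81 and 86.5 CPM), and Mki67 was 14.3, 22.5, 24.9, 44.9 and 47 CPM. The complement genes made by members beside C1q were C3 (61.4, 217, 290, 126 and 121 CPM) and factor B, Cfb (186, 387, 560, 214 and 260 CPM). Both were at least 2-fold higher in CTX and in Combined than in MRX, and neither was called in the pairs.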

How the data were processed

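Single-cell RNA of CD45+ mammary tumour cells was captured with an on-chip multiplexed 3′ kit per the labels' protocols, which also name Cell Ranger 9.0.1. GRCm39 and Seurat 5.2.0 are given per the submitters' processing notes. The authors deposited raw UMI counts per gene and cell barcode, per the file headers, and these counts were used with no further correction for free RNA. Cells with at least 200 genes and at most 15% mitochondrial counts were kept. The counts of members were summed per library and expressed as CPM, with a pseudocount of 1 CPM for log2 ratios. Genes were compared with at least 100 counts over the pair and 50 CPM in 1 library, and a log2 ratio of 1 in size was called. Intervals (95%) were Clopper-Pearson for shares, Newcombe for their differences, exact Poisson for levels and exact conditional binomial for ratios. Scripts used Python 3.11.15, numpy 2.4.6, scipy 1.17.1, pandas 2.3.3 and scanpy 1.11.5, and were tested on simulated data. Scrublet's automatic calls marked 0 to 6 cells a library, which is too few to have worked, so only the removal of the top 5% of its scores was tried.

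The members and gene lists were chosen with earlier results of these data known. Named genes were those of the label and title, list members past 2-fold in Combined against CTX or at day 18 with up to 4 further examples a list, the 8 highest and 8 lowest ratios in each of those pairs, the 5 highest and 5 lowest against each MRX contrast, and the 12 most different from C1q-low cells in each direction. Genes of the rule, markers of other cell types, antigen receptor segment, ribosomal, mitochondrial and haemoglobin genes, unnamed gene models and genes under 0.5 times the CPM of the other filtered cells were left out of the ranking. Prkca, Klk1, Wfdc18, further list members, such as Gbp5, Trem2 and Selenop, and the genes that follow C1q were named after their values were seen. Replicates do not exist for any label. Results for some genes are not reported here.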

Additional observations from a re-analysis of the deposited data

Results flagged for a closer look

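For 8 named genes the ratio of Combined against CTX and the ratio of combod18t against ctxd18t lay on opposite sides of 0, each by at least 0.5 on the log2 scale. Whether the ratios differ beyond the spread between animals was not tested, since each label has 1 library. Socs1, the feedback inhibitor of interferon signalling, was at 0.66 and -2.01, and Upp1, a uridine phosphorylase, at 0.94 and -1.10, though Upp1 did not pass the level filter at day 18. Serpina3g, a protease inhibitor, was at 0.72 and -0.70. In the other direction lay Apbb2 (-0.99 and 1.61), Zfp704 (-0.73 and 1.36) and the chemokine Cxcl14 (-0.96 and 1.36), with 21, 22 and 45 counts in Combined. Itga6, an integrin, was at -0.75 and 0.70 and Arhgap22 at -0.51 and 0.96. Apbb2, Zfp704, Cxcl14, Itga6 and Arhgap22 did not pass the level filter in Combined against CTX.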

How the results depend on the processing

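No paired analysis was possible because each label has 1 library, and for the same reason no replicate could be left out. The share of members in CTX minus that in MRX was 5.88 points with C1q of at least 3 in 2000 UMIs, 10.2 without the limit on T-cell genes and -0.813 among Csf1r-positive cells, a change of sign. Combined minus CTX was -11.6 points among Csf1r-positive cells and -11.9 without the T-cell limit. Combined minus MRX was -12.4 among Csf1r-positive cells, and the day-18 difference -5.07 without the T-cell limit. The values without the T-cell limit are shares of all filtered cells. Among Csf1r-positive cells the sign of the day-18 difference depends on that limit, as given above. Genes past 2-fold numbered 25 in Combined against CTX and 212 at day 18 with each member thinned to 2000 UMIs. With no filter on counts they numbered 238, 1634, 575 and 1044 in Combined against CTX, at day 18, in CTX against MRX and in Combined against MRX, as more low genes are then counted. Genes past 2-fold that changed sign were Srgap3 at day 18 (-0.16 without members carrying neutrophil or epithelial transcripts) and Cxcl13 (0.88 in CTX and 0.74 in Combined against MRX without its highest member). Mertk at day 18, under 2-fold, went from 0.78 to -0.22 with members thinned. Of the named genes past 2-fold, 5 of 10, 16 of 31, 12 of 13 and 11 of 13 stayed past it in all 13 settings, in the same order of comparisons. The denominator, the T-cell limit, and the removal of single members or of members with other cells' transcripts were chosen after seeing the data. With 101 members, combod18t limits the precision of every day-18 value.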
